A study of Mus musculus with 6 samples.

Results

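Interferon-stimulated genes are genes that cells switch on when an interferon reports a viral or other intracellular infection. The 36 genes described here are a named list of mouse interferon-stimulated genes, matched by gene symbol to the deposited table, which lists 51912 genes in all. All 36 symbols were found, and 35 genes had enough counts to be tested. RNA was sequenced from the hippocampus, the brain region of spatial and episodic memory, of DBA/2 mice (3 libraries) and C57BL/6 mice (3 libraries), both of them inbred laboratory strains. The labels name neither a treatment nor an infection, and they give no sex, age or substrain. Whether each library stands for 1 animal is not stated plainly, and p-values here cover only the spread among these libraries, part of which may be technical. The series was made to find genes expressed differently in the 2 strains.

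Type I interferons bind the receptor made of Ifnar1 and Ifnar2, whose kinases Jak1 and Tyk2 activate Stat2. Together with Irf9, Stat2 is part of ISGF3, a transcription factor complex that binds the interferon-stimulated response element in the promoters of its target genes. Interferon gamma acts through another receptor and the GAS element, and drives the immunity-related and guanylate-binding GTPases in particular. Without infection many of these genes keep a low basal level, in brain as elsewhere, to which microglia, vessels and other cells contribute.

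The promoters are shown first, because the response element is the sequence through which interferon is known to act on many such genes and because 2 of the pairs of genes described below are close neighbours. RefSeq promoter windows (GRCm38.p6, 250 bases before to 50 after a gene's start) were found for 28 of the 36 genes. The letters GAAA followed after any 2 bases by GAAA, searched on both strands as the core of the response element, occurred in 18 of these 28 promoters (64.3%), against 1079 of 27025 genes with such a window (3.99%). The GAS letters, TTC followed after any 3 bases by GAA, occurred in 10 of the 28 (35.7%), against 9.55% of all genes, and this motif reads the same on both strands. A match describes the sequence and is not a measured binding site. In the windows of Ifit3 and Ifit3b, Igtp and Irgm2, Isg15 and Xaf1, printed 5′ to 3′ in the direction of the gene, capitals mark this core on either strand. Ifit3 and Ifit3b are a pair of near-identical genes, and Igtp and Irgm2 are neighbours that were both lower in DBA/2. Isg15 holds 3 overlapping matches, and Xaf1, the most firmly changed gene, holds none in this window. Only these exact letters were searched, so a window without a match may still hold a variant of the element. Ifit2, Irf7 and Oasl2 had no match either.
Ifit3 (chr19:34583279-34583578, plus strand): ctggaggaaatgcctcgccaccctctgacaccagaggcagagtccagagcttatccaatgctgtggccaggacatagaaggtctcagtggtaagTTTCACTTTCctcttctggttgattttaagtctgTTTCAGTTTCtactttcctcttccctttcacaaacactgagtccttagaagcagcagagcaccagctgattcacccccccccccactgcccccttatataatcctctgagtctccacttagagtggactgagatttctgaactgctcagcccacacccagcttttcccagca
Ifit3b (chr19:34607707-34608006, plus strand): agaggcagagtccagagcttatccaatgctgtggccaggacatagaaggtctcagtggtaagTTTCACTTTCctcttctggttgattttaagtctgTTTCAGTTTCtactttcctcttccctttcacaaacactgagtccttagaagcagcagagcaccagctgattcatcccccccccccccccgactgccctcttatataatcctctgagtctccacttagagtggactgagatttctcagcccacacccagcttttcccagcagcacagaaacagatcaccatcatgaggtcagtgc
Igtp (chr11:58199306-58199605, plus strand): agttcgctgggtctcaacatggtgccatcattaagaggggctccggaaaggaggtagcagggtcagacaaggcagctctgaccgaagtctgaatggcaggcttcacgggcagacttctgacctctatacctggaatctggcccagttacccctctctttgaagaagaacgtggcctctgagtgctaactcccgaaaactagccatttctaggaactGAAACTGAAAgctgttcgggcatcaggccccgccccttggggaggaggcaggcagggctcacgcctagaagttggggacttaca
Irgm2 (chr11:58214727-58215026, plus strand): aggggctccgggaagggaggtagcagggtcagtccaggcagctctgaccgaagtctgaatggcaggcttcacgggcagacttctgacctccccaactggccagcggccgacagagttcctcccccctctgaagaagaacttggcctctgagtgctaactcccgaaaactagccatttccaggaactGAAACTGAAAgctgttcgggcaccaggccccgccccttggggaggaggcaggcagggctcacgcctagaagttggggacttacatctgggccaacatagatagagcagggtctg
Isg15 (chr4:156200769-156201068, minus strand): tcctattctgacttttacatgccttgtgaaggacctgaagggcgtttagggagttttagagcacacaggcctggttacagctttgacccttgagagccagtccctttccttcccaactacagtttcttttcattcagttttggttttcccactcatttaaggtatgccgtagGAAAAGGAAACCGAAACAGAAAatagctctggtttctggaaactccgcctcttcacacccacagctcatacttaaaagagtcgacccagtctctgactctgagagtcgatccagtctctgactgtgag
Xaf1 (chr11:72301379-72301678, plus strand): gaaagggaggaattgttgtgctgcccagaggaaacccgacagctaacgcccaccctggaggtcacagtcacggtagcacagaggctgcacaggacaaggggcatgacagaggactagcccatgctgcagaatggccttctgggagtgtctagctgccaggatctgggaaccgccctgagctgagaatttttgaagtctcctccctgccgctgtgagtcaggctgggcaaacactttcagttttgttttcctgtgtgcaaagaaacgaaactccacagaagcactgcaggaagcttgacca
The windows of Ifit3 and Ifit3b were identical at 259 of 260 aligned bases, and the alignment also held 80 gap columns, from the offset of the windows and from insertions or deletions within them.

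Most interferon-stimulated genes were expressed at a low level in both strains. Levels are compared between genes as FPKM, the authors' count divided by exon length and library total, averaged over the 6 libraries. Adar, which edits adenosine to inosine in double-stranded RNA and is constitutively active in neurons, was the most abundant at 19.8 FPKM. It was followed by Ifi27, a small mitochondrial membrane protein, at 17 FPKM, Stat2 at 7.05 FPKM, the antiviral membrane protein Ifitm3 at 6.82 FPKM and the virus tether Bst2 at 3.92 FPKM. The per-library ranges of Adar and Ifi27 overlap in DBA/2, and those of Stat2 and Ifitm3 overlap in C57BL/6. Those of Bst2 and Irf9 overlap in both strains, so their order is uncertain. The order of the strain means was not the same in both strains. In DBA/2, Stat2 (7.57 FPKM) was above Ifitm3 (6.36) and Bst2 (5) above Irf9 (3.53), whereas in C57BL/6 Ifitm3 (7.27) was above Stat2 (6.52) and Irf9 (3.12) above Bst2 (2.83). The median of the 36 genes was 1.14 FPKM, 15 of them lay under 1 FPKM, and Oas1a and Ifi44 were the lowest at 0.195 and 0.132 FPKM. In bulk tissue, fewer cells that express a gene and less of its RNA per cell cannot be told apart.

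**Figure D1:**
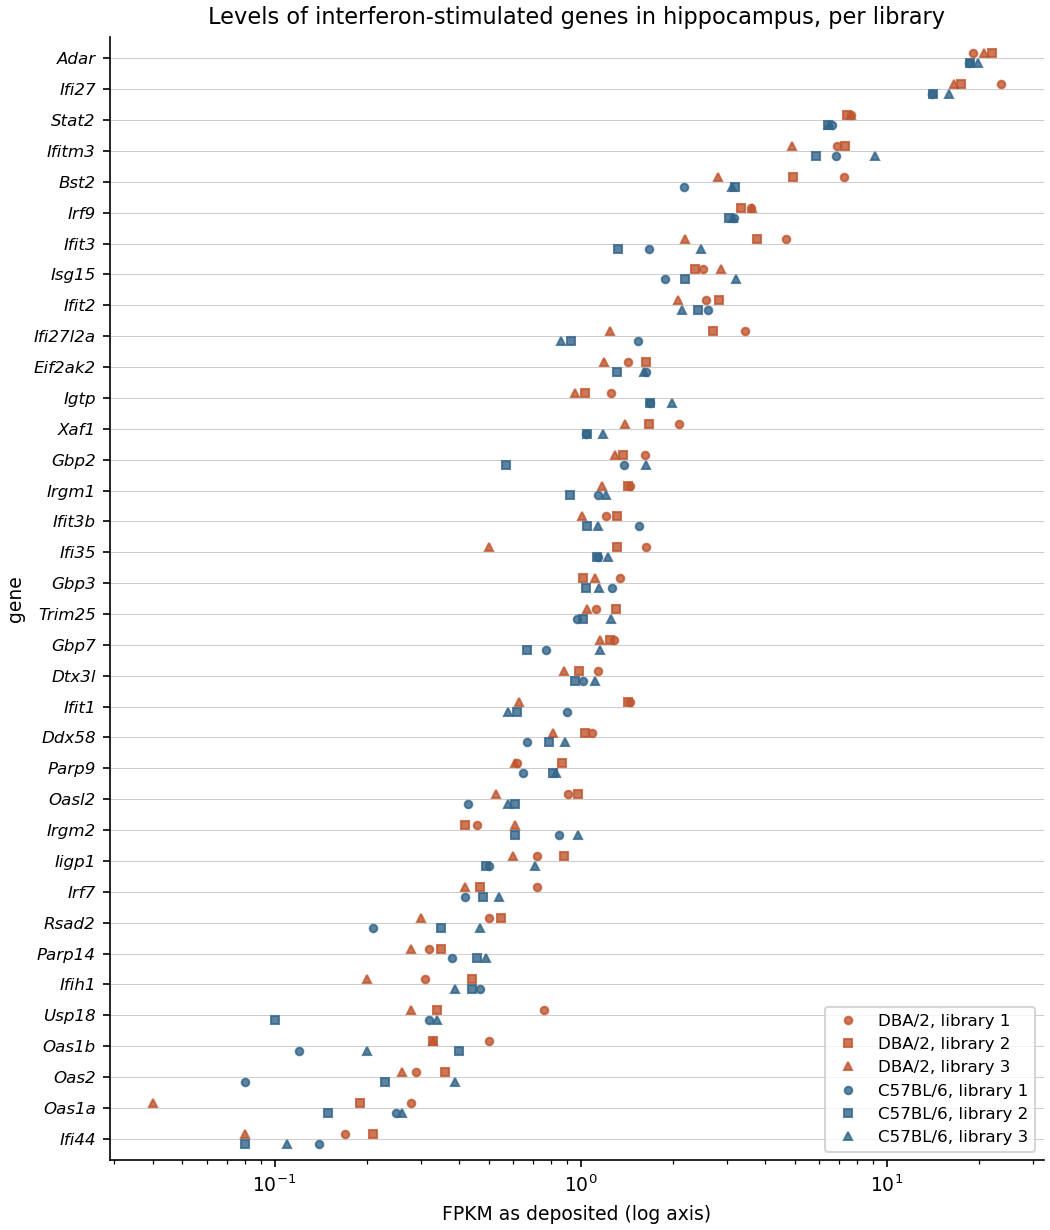
Level of each of the 36 interferon-stimulated genes in each library, as deposited FPKM on a log axis, with genes in order of their mean and DBA/2 libraries drawn above C57BL/6 libraries in each row. Levels run from near 20 FPKM for Adar to under 0.2 FPKM for Oas1a and Ifi44, and for most genes the strains overlap.

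Of the 35 tested genes, 7 passed the test of the strains. Xaf1, Ifi27, Stat2, Ifit3 and Ifi27l2a were higher in DBA/2, and the GTPase genes Igtp and Irgm2 were lower. That is 14.3% higher and 5.71% lower. Over the whole table of 17517 tested genes, edgeR's quasi-likelihood test with a Benjamini-Hochberg adjusted p under 0.05 called 22.8%, 9.09% higher and 13.7% lower in DBA/2. The share called among the interferon-stimulated genes was therefore near that of genes in general. Log2 fold changes, DBA/2 over C57BL/6, had a median of 0.19 against 0.0027 over all genes, and 24 were positive and 11 negative (68.6% positive, against 50.6% of all genes). At an unadjusted p under 0.05, 9 genes were higher and 3 lower. The share of all genes at that threshold was not computed, so these counts have no background. DBA/2 and C57BL/6 libraries were fully separate for 4 genes that were higher in DBA/2 (Xaf1, Ifi27, Stat2 and Irf9) and 3 that were lower (Igtp, Irgm2 and Parp14), also 7 in all, against 36.8% of all genes (16.7% higher and 20.1% lower).

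**Figure D2:**
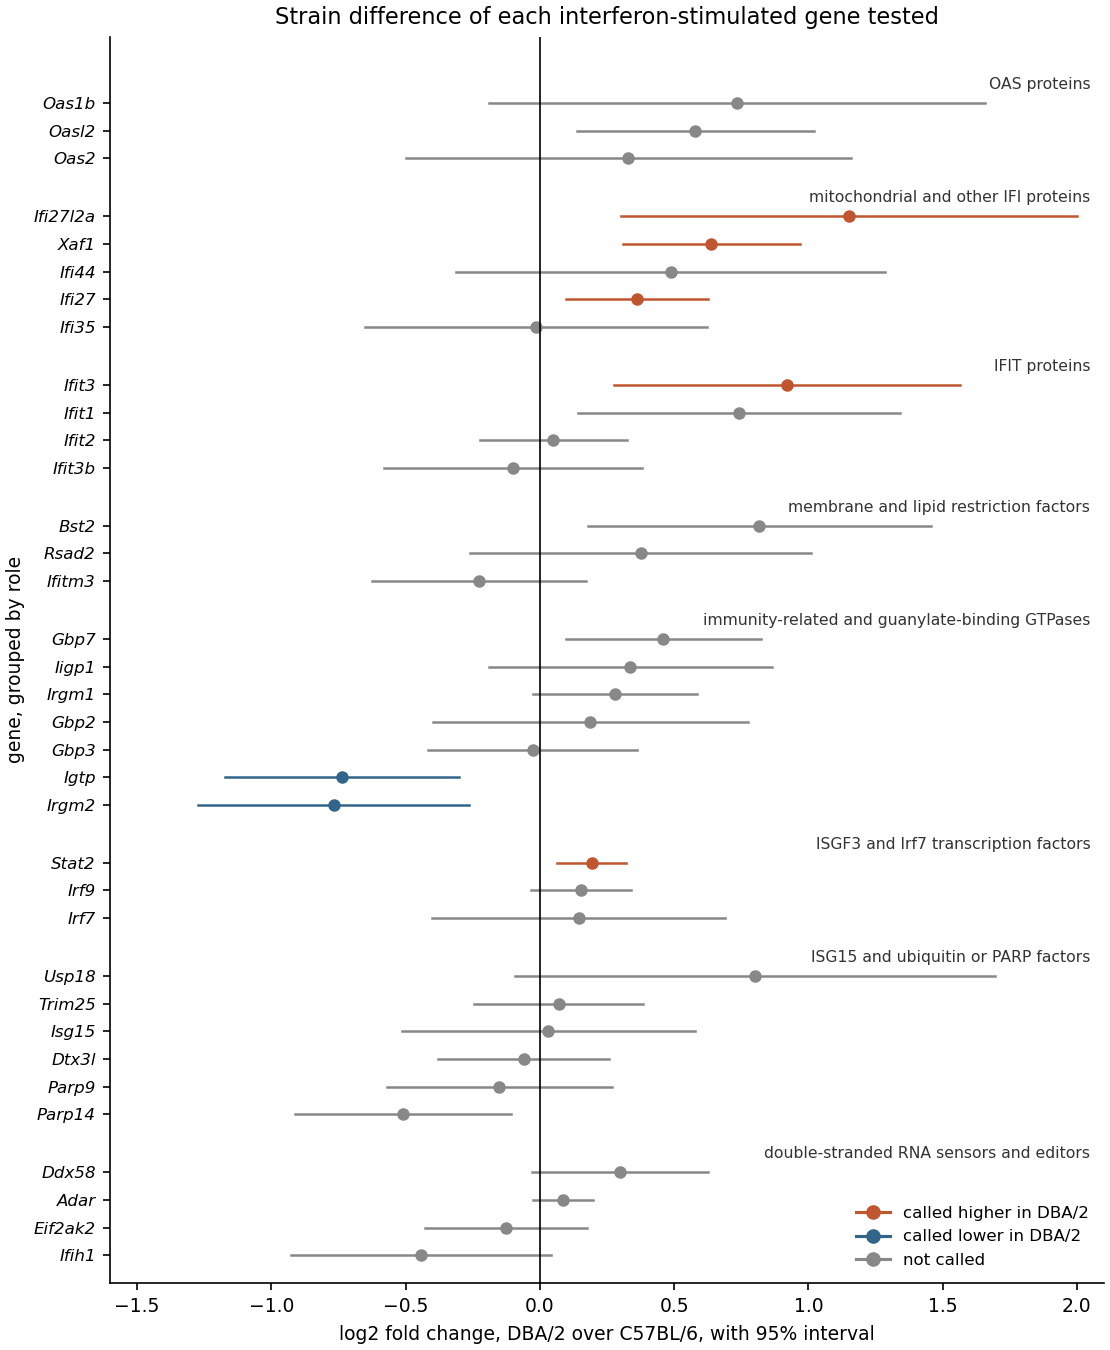
Log2 fold change of the 35 tested genes, DBA/2 over C57BL/6, with its 95% interval, grouped by role and coloured by call. Positive values are higher in DBA/2. The 5 called rises lie between 0.19 and 1.15, both called falls lie near -0.75, and some of the other 28 genes have point estimates as large as the called ones with wider intervals.

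Most of these genes had few counts, and most calls depended on single libraries. Total counts were 13839366 to 16912153 in DBA/2 and 13867280 to 20185683 in C57BL/6, and 23 of the 35 genes had a mean under 5 CPM, where CPM are counts relative to the library total after TMM scaling. The median standard error of the log2 fold change was 0.21 for these genes and 0.10 for all genes. Only Xaf1 kept its call when any 1 library was left out, and each other call depended on 1 or more libraries, which are named with the gene. The DESeq2 Wald test called Xaf1, Ifi27 and Ifit3 higher and no gene lower (2 lower at an unadjusted p under 0.05), so that Stat2, Ifi27l2a, Igtp and Irgm2 were not called by it, and limma-voom called 4 higher and 2 lower.

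Of the 3 transcription factor genes in the list, Stat2 was higher in DBA/2. Stat2 (ENSMUSG00000040033, chromosome 10, 128270559 to 128292849) had 45, 43.5 and 45.2 CPM in the DBA/2 libraries, against 39.8, 38.5 and 38.7 CPM in the C57BL/6 libraries. All 3 DBA/2 libraries lay above all C57BL/6 libraries, and the libraries of each strain were within a few percent of each other. This gave a log2 fold change of 0.19 ± 0.063 (SE, edgeR with Benjamini-Hochberg adjustment, adjusted p = 0.0285), the smallest of the 7 changes. The call was lost without any 1 library except DBA/2 library 2 (edgeR, Benjamini-Hochberg adjusted p = 0.0719 without DBA/2 library 1, 0.0677 without DBA/2 library 3, and 0.0517, 0.0816 and 0.0999 without C57BL/6 libraries 1, 2 and 3, with 0.0127 to 0.246 over all alternatives).
Irf9, the DNA-binding partner of Stat2, had 19.3, 17.8 and 19.5 CPM in the DBA/2 libraries, against 17.2, 16.5 and 17.1 CPM in the C57BL/6 libraries. The strains did not overlap for Irf9 either, but its log2 fold change of 0.15 (95% interval -0.034 to 0.34) was not called (edgeR, Benjamini-Hochberg adjusted p = 0.252). Irf7, which amplifies the interferon response, was scarcer, at 2.02 ± 0.599 CPM in DBA/2 and 1.83 ± 0.21 CPM in C57BL/6 (SD, n = 3 each), and the strains overlapped.

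In the group of mitochondrial and other IFI proteins, 3 of 5 genes were higher in DBA/2 and none was lower. Over all tested genes 9.09% were higher and 13.7% lower. The group was not tested as a set, and 5 genes are few to set beside these shares. Xaf1 encodes an antagonist of the apoptosis inhibitor Xiap. Xaf1 (ENSMUSG00000040483, chromosome 11, 72301629 to 72313733) had 9.75, 7.77 and 6.56 CPM in the DBA/2 libraries, against 4.94, 4.96 and 5.59 CPM in the C57BL/6 libraries. Every DBA/2 library exceeded every C57BL/6 library, and DBA/2 library 1 was the highest of all. Its log2 fold change was 0.64 ± 0.16 (SE), 1.56-fold, with an adjusted p of 0.00428 (edgeR quasi-likelihood test, Benjamini-Hochberg), the lowest of the 35 genes. Leaving out 1 library gave edgeR Benjamini-Hochberg adjusted p-values from 0.00105 to 0.0497, all of them called.

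Ifi27 (ENSMUSG00000064215, chromosome 12, 103434211 to 103440239) had 34.5, 25.3 and 24.2 CPM in the DBA/2 libraries, against 20.8, 21 and 23.5 CPM in the C57BL/6 libraries. The strains did not overlap, but DBA/2 library 3 and C57BL/6 library 3 were close, and DBA/2 library 1 stood well above the rest. Ifi27 had a log2 fold change of 0.36 ± 0.12 (SE, edgeR with Benjamini-Hochberg adjustment, adjusted p = 0.0496), and the adjusted p was 0.185, 0.156 and 0.143 without DBA/2 library 1, C57BL/6 library 1 and C57BL/6 library 2 (0.000279 to 0.207 over all alternatives). Ifi27l2a, a paralog of Ifi27 on the same chromosome (ENSMUSG00000079017, chromosome 12, 103442167 to 103443680), was far scarcer, with 1.59, 1.24 and 0.576 CPM in the DBA/2 libraries, against 0.722, 0.437 and 0.399 CPM in the C57BL/6 libraries. DBA/2 libraries 1 and 2 were the highest, while DBA/2 library 3 fell inside the C57BL/6 range. The log2 fold change of 1.15 ± 0.41 (SE, edgeR with Benjamini-Hochberg adjustment, adjusted p = 0.0455) was the largest of the list and rested on 56 counts in DBA/2 and 26 in C57BL/6. It lost its call without DBA/2 library 1 (edgeR, Benjamini-Hochberg adjusted p = 0.24), DBA/2 library 2 (0.117), C57BL/6 library 2 (0.116) or C57BL/6 library 3 (0.173), with 0.0114 to 0.24 over all alternatives.
Of the other genes in this group, Ifi35, a partner of Nmi, averaged 1.97 ± 1 CPM in DBA/2 and 2.03 ± 0.0973 CPM in C57BL/6 (SD, n = 3 each). Ifi44 averaged 0.952 ± 0.406 CPM in DBA/2 and 0.684 ± 0.167 CPM in C57BL/6 (SD, n = 3 each). Ifi35 varied most in DBA/2, where library 3 was well below libraries 1 and 2.

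IFIT proteins bind foreign RNA caps and block its translation, and their 4 genes lie side by side on chromosome 19. Ifit3 passed the test as higher in DBA/2, Ifit1 had a similar difference that did not pass, and Ifit2 and Ifit3b had differences near 0. Ifit3 (ENSMUSG00000074896, chromosome 19, 34583531 to 34588731) had 8.1, 6.54 and 3.82 CPM in the DBA/2 libraries, against 2.95, 2.33 and 4.34 CPM in the C57BL/6 libraries. DBA/2 libraries 1 and 2 were the highest, and DBA/2 library 3 lay below C57BL/6 library 3. The log2 fold change was 0.92 ± 0.29 (SE, edgeR with Benjamini-Hochberg adjustment, adjusted p = 0.0443). It lost its call without DBA/2 library 1 (edgeR, Benjamini-Hochberg adjusted p = 0.0836), DBA/2 library 2 (0.128), C57BL/6 library 1 (0.141) or C57BL/6 library 2 (0.0965), with 8.97e-06 to 0.141 over all alternatives.
The longest transcripts of Ifit3 and Ifit3b are 97.8% identical over 1700 bases, so the authors' counting could split their reads, and the values of each are uncertain. Ifit3b had 2.41, 2.59 and 2.02 CPM in the DBA/2 libraries, against 3.13, 2.11 and 2.29 CPM in the C57BL/6 libraries, with overlapping strains. With both genes summed, the levels were 10.5, 9.13 and 5.84 CPM in the DBA/2 libraries, against 6.08, 4.45 and 6.63 CPM in the C57BL/6 libraries. The sum had a log2 fold change of 0.56 ± 0.20 (SE) and was not called (edgeR, Benjamini-Hochberg adjusted p = 0.057).
Ifit1, which binds RNA that lacks cap methylation, had 3.82, 3.77 and 1.66 CPM in the DBA/2 libraries, against 2.41, 1.68 and 1.55 CPM in the C57BL/6 libraries. DBA/2 library 3 fell within the C57BL/6 range while the other two DBA/2 libraries lay above it. The log2 fold change of 0.74 had a 95% interval of 0.14 to 1.34 and an edgeR Benjamini-Hochberg adjusted p of 0.0719, which became 0.00385 without DBA/2 library 3 and 0.0465 without C57BL/6 library 1 (0.00385 to 0.244 over all alternatives). Ifit2, the most abundant of the 4 by count, averaged 9.71 ± 1.45 CPM in DBA/2 and 9.46 ± 0.939 CPM in C57BL/6 (SD, n = 3 each), and its strains overlapped.

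The immunity-related and guanylate-binding GTPases coat and disrupt vacuoles that hold intracellular pathogens. Igtp and Irgm2, neighbouring genes on chromosome 11 that encode regulatory members of the immunity-related family, were lower in DBA/2, and the other 5 GTPase genes did not pass. Igtp (ENSMUSG00000078853, chromosome 11, 58199556 to 58207591) had 2.52, 2.06 and 1.95 CPM in the DBA/2 libraries, against 3.43, 3.43 and 4.04 CPM in the C57BL/6 libraries. All DBA/2 libraries lay below all C57BL/6 libraries. Igtp had a log2 fold change of -0.74 ± 0.21 (SE, edgeR with Benjamini-Hochberg adjustment, adjusted p = 0.0122), and without C57BL/6 library 3 the adjusted p was 0.0741 (0.012 to 0.258 over all alternatives).
Irgm2 (ENSMUSG00000069874, chromosome 11, 58199618 to 58222782) had 1.7, 1.53 and 2.23 CPM in the DBA/2 libraries, against 3.19, 2.26 and 3.64 CPM in the C57BL/6 libraries. Its strains were also separate, but only narrowly between DBA/2 library 3 and C57BL/6 library 2. For Irgm2 the log2 fold change was -0.77 ± 0.24 (SE, edgeR with Benjamini-Hochberg adjustment, adjusted p = 0.0242). It lost its call without DBA/2 library 1 (edgeR, Benjamini-Hochberg adjusted p = 0.0745), DBA/2 library 2 (0.108), C57BL/6 library 1 (0.074) or C57BL/6 library 3 (0.152), with 0.0102 to 0.723 over all alternatives.
The annotated spans of Igtp and Irgm2 share 7974 bases on the same strand, so that their reads may have been divided between them. Their falls are therefore not taken as separate evidence, although the counts of called and of fully separate genes include each of them. Whether their exons overlap was not examined, and the Irgm2 promoter window printed above (from 58214727) lies past the end of Igtp (58207591). With both summed, an alternative chosen after the data were seen, the levels were 4.23, 3.59 and 4.18 CPM in the DBA/2 libraries, against 6.62, 5.69 and 7.68 CPM in the C57BL/6 libraries. The sum fell by 0.75 on the log2 scale (SE 0.17, edgeR with Benjamini-Hochberg adjustment, adjusted p = 0.00146).
Irgm1, the third regulatory gene, lies elsewhere on chromosome 11 and was more abundant, with 8.34, 8.24 and 6.77 CPM in the DBA/2 libraries, against 6.68, 5.39 and 7.08 CPM in the C57BL/6 libraries. Its point estimate was positive at 0.28 (95% interval -0.025 to 0.58), and the strains overlapped. Gbp7, a guanylate-binding protein, had 7.16, 6.95 and 6.48 CPM in the DBA/2 libraries, against 4.39, 3.79 and 6.53 CPM in the C57BL/6 libraries. All DBA/2 libraries were at or near the level of C57BL/6 library 3, and C57BL/6 libraries 1 and 2 were lower. Its log2 fold change of 0.46 was not called (edgeR, Benjamini-Hochberg adjusted p = 0.0635) but was called without C57BL/6 library 3 (adjusted p = 0.00465, 0.00465 to 0.244 over all alternatives). Gbp2 averaged 3.57 ± 0.426 CPM in DBA/2 and 3.05 ± 1.41 CPM in C57BL/6 (SD, n = 3 each), and its C57BL/6 library 2 was far below the other libraries. Gbp3, of the same family, averaged 3.75 ± 0.538 CPM in DBA/2 and 3.81 ± 0.394 CPM in C57BL/6 (SD, n = 3 each). Iigp1, an effector GTPase that attacks the vacuole membrane, averaged 2.27 ± 0.419 CPM in DBA/2 and 1.78 ± 0.403 CPM in C57BL/6 (SD, n = 3 each). The strains overlapped for both.

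**Figure D3:**
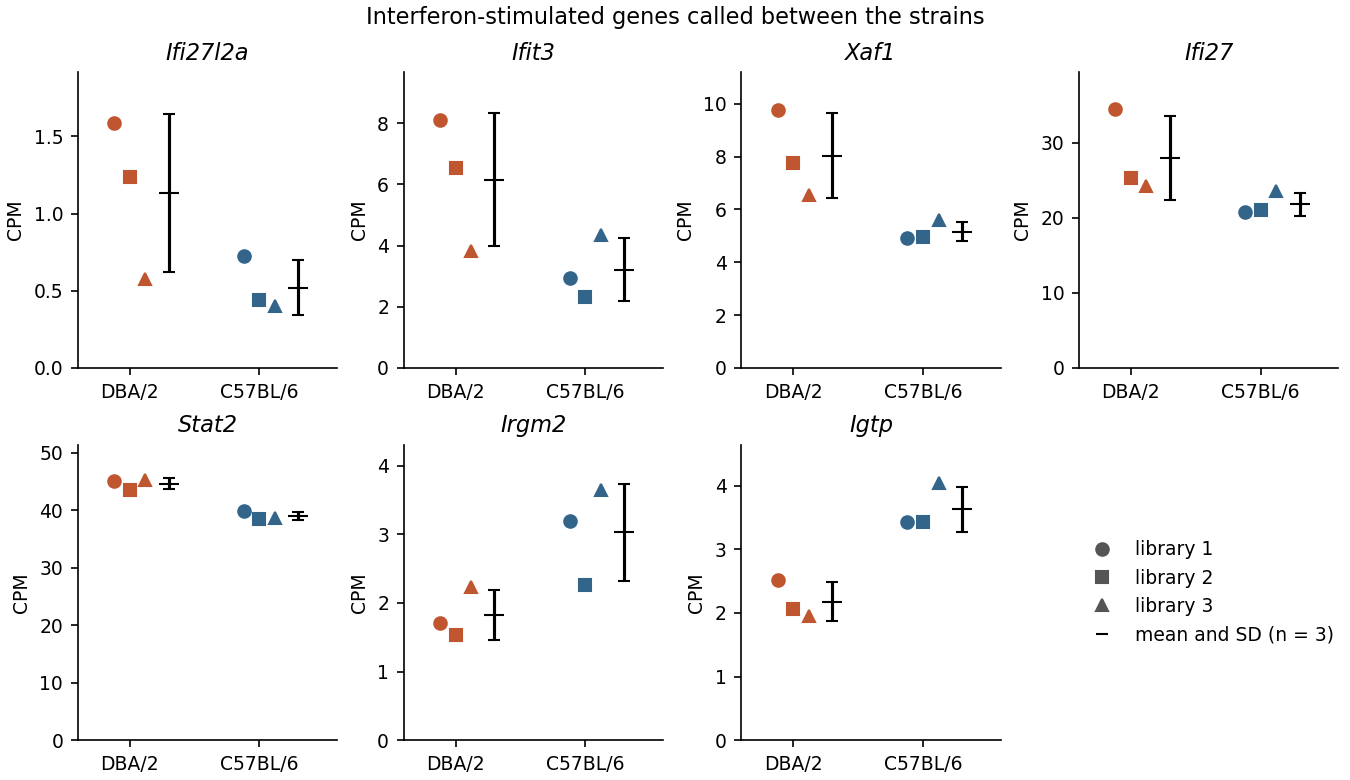
CPM of the 7 called genes in each library, DBA/2 in orange left of C57BL/6 in blue, with marker shape for the library and the mean and SD (n = 3) beside the points. The strains are separate for Xaf1, Ifi27, Stat2, Irgm2 and Igtp, whereas DBA/2 library 3 reaches the C57BL/6 range for Ifi27l2a and Ifit3.

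OAS proteins sense double-stranded RNA and make the messenger that activates the nuclease RNase L. No OAS gene was called by edgeR, DESeq2 or limma-voom, and 1 was higher at an unadjusted p under 0.05 in each. Oasl2, a family member related to Oas1, had 5.75, 6.18 and 3.39 CPM in the DBA/2 libraries, against 2.77, 3.94 and 3.69 CPM in the C57BL/6 libraries. DBA/2 libraries 1 and 2 were the highest, and DBA/2 library 3 sat among the C57BL/6 libraries. The log2 fold change of 0.58 (95% interval 0.14 to 1.02) missed the threshold (edgeR, Benjamini-Hochberg adjusted p = 0.0541) and passed it without DBA/2 library 3 (adjusted p = 0.00391, 0.00391 to 0.52 over all alternatives). Oas2 averaged 1.34 ± 0.223 CPM in DBA/2 and 1.04 ± 0.693 CPM in C57BL/6 (SD, n = 3 each). Oas1b, which GENCODE annotates as a polymorphic pseudogene, averaged 0.765 ± 0.202 CPM in DBA/2 and 0.481 ± 0.289 CPM in C57BL/6 (SD, n = 3 each). Both had positive point estimates with intervals that included 0. Oas1a, with 38 counts in all 6 libraries, was too scarce to be tested and is 97.6% identical to Oas1g over their alignment.

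Bst2, also called tetherin, holds budding virus particles on the cell membrane. It had 6.52, 4.42 and 2.52 CPM in the DBA/2 libraries, against 1.99, 2.92 and 2.84 CPM in the C57BL/6 libraries. The DBA/2 libraries spread widely, with library 1 the highest of all 6 and library 3 inside the C57BL/6 range. Its log2 fold change of 0.82 (95% interval 0.18 to 1.46) was not called (edgeR, Benjamini-Hochberg adjusted p = 0.0655) and was called without DBA/2 library 3 (adjusted p = 0.000878, 0.000878 to 0.531 over all alternatives). Ifitm3, which blocks virus entry from endosomes, averaged 4.28 ± 0.846 CPM in DBA/2 and 4.98 ± 1.14 CPM in C57BL/6 (SD, n = 3 each). Rsad2, the antiviral enzyme viperin, averaged 1.94 ± 0.566 CPM in DBA/2 and 1.49 ± 0.572 CPM in C57BL/6 (SD, n = 3 each). The strains overlapped for both, with DBA/2 library 3 the lowest of its strain.

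None of the 4 sensors and editors of double-stranded RNA was called by edgeR, DESeq2 or limma-voom, and 0 had an unadjusted p under 0.05 in any of them. Adar had 154, 177 and 168 CPM in the DBA/2 libraries, against 153, 154 and 163 CPM in the C57BL/6 libraries, and its log2 fold change of 0.086 had the narrowest interval of the list (-0.024 to 0.20). The strains overlapped, since DBA/2 library 1 lay inside the C57BL/6 range. The span of Adar overlaps that of Chrnb2 on the opposite strand by 7252 bases (15866 counts of Adar and 7048 of Chrnb2 over all libraries), so without a known strand setting their reads cannot be told apart there. Eif2ak2, the kinase PKR that halts translation, averaged 7.19 ± 1.1 CPM in DBA/2 and 7.85 ± 0.932 CPM in C57BL/6 (SD, n = 3 each). Ddx58, the RNA sensor RIG-I, averaged 6.84 ± 1.02 CPM in DBA/2 and 5.57 ± 0.736 CPM in C57BL/6 (SD, n = 3 each). Ifih1, the related sensor MDA5, averaged 2.57 ± 0.939 CPM in DBA/2 and 3.56 ± 0.337 CPM in C57BL/6 (SD, n = 3 each). The point estimates of these sensors had opposite signs, 0.30 for Ddx58 and -0.44 for Ifih1, and both intervals included 0. Ifih1 passed the test as lower in DBA/2 without DBA/2 library 2 (edgeR, Benjamini-Hochberg adjusted p = 0.0444, 0.0444 to 0.556 over all alternatives).

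Isg15 is a ubiquitin-like modifier that is among the most strongly induced of all interferon targets. No gene among Isg15 and the 5 related ubiquitin and PARP factors was called by edgeR, DESeq2 or limma-voom (1 lower at an unadjusted p under 0.05 in edgeR and limma-voom). It had 1.88, 1.77 and 2.16 CPM in the DBA/2 libraries, against 1.44, 1.68 and 2.44 CPM in the C57BL/6 libraries. The libraries were interleaved, and the log2 fold change was 0.032 (95% interval -0.51 to 0.58). Usp18, which removes Isg15 from proteins and dampens receptor signalling, averaged 1.28 ± 0.723 CPM in DBA/2 and 0.714 ± 0.367 CPM in C57BL/6 (SD, n = 3 each), with DBA/2 library 1 far above the other 5 libraries. Trim25, a ubiquitin ligase that activates Ddx58, averaged 6.62 ± 0.711 CPM in DBA/2 and 6.28 ± 0.876 CPM in C57BL/6 (SD, n = 3 each).
Parp14, an ADP-ribosyltransferase, had 2.94, 3.18 and 2.59 CPM in the DBA/2 libraries, against 3.55, 4.3 and 4.59 CPM in the C57BL/6 libraries. All DBA/2 libraries were below all C57BL/6 libraries, but the log2 fold change of -0.51 (95% interval -0.91 to -0.11) missed the threshold (edgeR, Benjamini-Hochberg adjusted p = 0.0628), and passed it without C57BL/6 library 1 (adjusted p = 0.0486, 0.0486 to 0.278 over all alternatives). Its neighbours on chromosome 16, Parp9 and the ubiquitin ligase Dtx3l, act as a complex. Parp9 averaged 3.38 ± 0.697 CPM in DBA/2 and 3.76 ± 0.498 CPM in C57BL/6 (SD, n = 3 each). Dtx3l averaged 5.7 ± 0.713 CPM in DBA/2 and 5.94 ± 0.424 CPM in C57BL/6 (SD, n = 3 each). The strains overlapped for both. Parp9 and Dtx3l overlap on opposite strands by 682 bases, and whether the counting used strand is not given in the sources used here.

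Libraries of the same strain differed along these genes in a shared way. DBA/2 library 3 was the lowest of its strain for 28 of the 35 genes (80.0%, against 34.3% of all genes), with a median deviation of -0.19 from the strain mean on the log2(CPM + 0.5) scale. DBA/2 libraries 1 and 2 deviated by 0.14 and 0.09. In C57BL/6, library 3 was the highest for 22 of 35 genes (62.9%, against 31.7% of all genes), with a median deviation of 0.11. C57BL/6 libraries 1 and 2 deviated by -0.056 and -0.071. DBA/2 library 3 also had the fewest total counts of the 6 libraries (13839366), and C57BL/6 library 3 the most (20185683). Within each strain these deviations followed the order of total counts, and the part of sequencing depth was not tested. Without Adar, which holds a large part of the counts, the summed level was 233, 216 and 186 CPM in the DBA/2 libraries, against 183, 175 and 199 CPM in the C57BL/6 libraries. C57BL/6 library 3 thus exceeded DBA/2 library 3, although the other two libraries of each strain were ordered the other way. Without DBA/2 library 3, 7 genes were called higher and 2 lower, the added ones being Bst2, Ifit1 and Oasl2. Without DBA/2 library 1 only Xaf1 was called higher and 1 gene lower. Over all genes, 1405 were called higher and 2152 lower without DBA/2 library 3, and 1483 and 2234 without DBA/2 library 1. With all libraries these numbers were 1593 and 2407.

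Some markers of other cell types were low or high in the same libraries. Of 3 border macrophage and monocyte markers tested, 2 were lowest in DBA/2 library 3 and 3 highest in C57BL/6 library 3. In DBA/2 library 3, 5 of 6 ependymal, 7 of 10 astrocyte, 6 of 8 fibroblast and meninges and 4 of 5 red blood cell markers were lowest. In C57BL/6 library 3, 2, 0, 2 and 0 of these were highest. Of 14 microglia, 12 thalamus and habenula and 12 hippocampal neuron markers, 7, 9 and 2 were lowest in DBA/2 library 3. In C57BL/6 library 3, 4, 4 and 1 of them were highest. The 12 markers of vessels were lowest in DBA/2 library 3 for 11 genes and highest in C57BL/6 library 3 for 9, and their summed level was 356, 380.2 and 324 CPM in the DBA/2 libraries, against 265, 265 and 347 CPM in the C57BL/6 libraries. Over all tested genes 9.09% were higher and 13.7% lower between the strains. Of the 12 vessel markers 2 were higher (Cldn5 and Slco1a4, of the endothelial barrier) and 1 lower (Vtn, of pericytes). The number called higher was 7 without C57BL/6 library 3 and 1 without any 1 of the 3 DBA/2 libraries or C57BL/6 library 2. The 12 markers of choroid plexus, the secretory tissue that lines the ventricle beside the hippocampus, were all highest in DBA/2 library 1 and all lowest in DBA/2 library 3. In C57BL/6 all 12 were highest in library 1, with a median deviation of -0.28 in library 3, whereas the interferon-stimulated genes deviated by -0.056 in library 1 and 0.11 in library 3. The choroid plexus markers summed to 2801, 2020.0 and 1275 CPM in the DBA/2 libraries, against 1575, 1006 and 710.5 CPM in the C57BL/6 libraries, and none was called between the strains by edgeR (1 higher at an unadjusted p under 0.05) or DESeq2, against 3 higher by limma-voom. Leaving out DBA/2 library 3 or C57BL/6 library 1 gave 2 and 1 higher by edgeR. Oligodendrocyte markers were also all lowest in DBA/2 library 3 and all highest in C57BL/6 library 1 (median deviation -0.036 in library 3), and 2 of 10 were lower in DBA/2 by edgeR, 7 by DESeq2 and 9 by limma-voom.
Of 14 microglia markers, 7 were lower in DBA/2 and none was higher, against 13.7% lower and 9.09% higher over all tested genes. Their summed levels were 353 to 382 CPM in DBA/2 and 443 to 479 CPM in C57BL/6. Lymphocyte markers summed to 0.998 to 1.3 CPM in DBA/2 and 0.843 to 1.46 CPM in C57BL/6, too little to test any of the 8. Of 12 thalamus and habenula markers, 8 were lower in DBA/2 (295 to 388 CPM in DBA/2 and 547 to 759 CPM in C57BL/6 summed), while 12 hippocampal neuron markers summed to 4483 to 4799 CPM in DBA/2 and 4299 to 4635 CPM in C57BL/6, with 3 higher and 1 lower. Without DBA/2 library 3, 5 of the thalamus and habenula markers were lower. No listed marker of vessels, choroid plexus, microglia or hippocampal neurons was at 0 in all libraries. The part of these cell types in the differences of the interferon-stimulated genes was not tested.
C57BL/6 libraries 1 and 3 held 3214 and 6995 counts of Xist, an RNA of female cells, against at most 12 in the other libraries. All 6 libraries held the Y-linked Ddx3y, with 1048 and 1006 counts in these 2 and 837 to 1323 in DBA/2. High Xist was thus limited to C57BL/6, and the 2 libraries with it also held Ddx3y within the range of the other libraries. Both RNAs in 1 library may mean that it holds RNA of both sexes, which the labels do not state. The make-up by sex may therefore differ between the strains compared, and its part in the differences was not tested. Without C57BL/6 libraries 1 and 3, 1 C57BL/6 library remains, whose spread is then taken from DBA/2. The log2 fold changes were then 0.70 for Xaf1, 0.42 for Ifi27, 0.21 for Stat2, 1.42 for Ifit3 and 1.39 for Ifi27l2a. They were -0.64 for Igtp, -0.32 for Irgm2, 1.29 for Gbp2 and 0.86 for Gbp7. Xaf1, Ifi27, Stat2, Ifi27l2a, Igtp and Irgm2 lost their calls in that fit. Gbp2 and Gbp7, not called with all libraries, gained one.

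**Figure D4:**
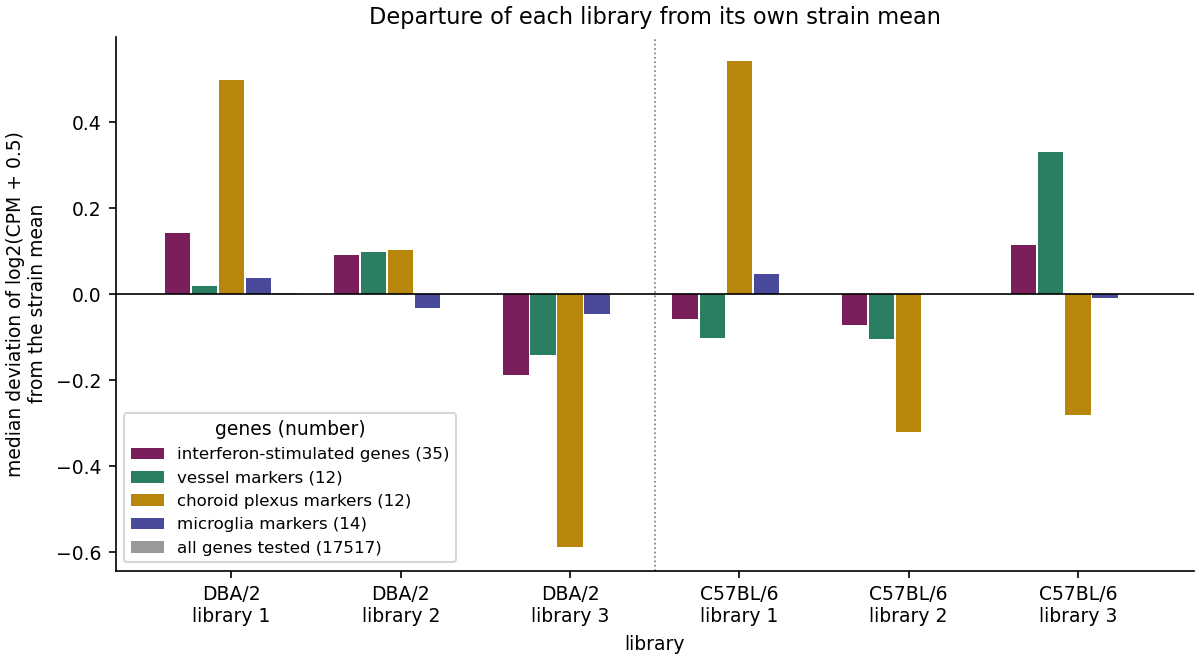
Median deviation of each library from its strain mean on the log2(CPM + 0.5) scale, for the interferon-stimulated genes, vessel, choroid plexus and microglia markers and all genes tested, with the DBA/2 libraries left of the C57BL/6 libraries. DBA/2 library 3 is lowest for the interferon-stimulated genes (-0.19) and for choroid plexus and vessel markers, C57BL/6 library 3 is high for the interferon-stimulated genes (0.11) and vessel markers, and the medians over all genes are too close to 0 to show as bars.

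Genes of the pathway outside the list, 104 in the table, had 77 tested, with 6 higher and 6 lower in DBA/2. Over all tested genes 9.09% were higher and 13.7% lower, so neither share was above that of genes in general. No interferon ligand could be tested. Of 10 ligand genes 7 had no count in any library, and Ifna2, Ifng and Ifnl3 had 1 count each over all 6.
Of the receptors and their kinases, 3 of 8 were higher and none was lower (9.09% higher and 13.7% lower over all tested genes). Ifnar1, a chain of the type I interferon receptor, averaged 65 ± 3.93 CPM in DBA/2 and 47 ± 1.79 CPM in C57BL/6 (SD, n = 3 each), and all DBA/2 libraries were above all C57BL/6 libraries. Its log2 fold change was 0.46 ± 0.062 (SE, edgeR with Benjamini-Hochberg adjustment, adjusted p = 4.15e-06). The kinases had smaller changes, 0.22 for Tyk2 (edgeR, Benjamini-Hochberg adjusted p = 0.027) and 0.21 for Jak2 (0.0266).
None of the 7 other transcription factors tested was called by edgeR, DESeq2 or limma-voom, and 0 had an unadjusted p under 0.05. Stat3 averaged 49.8 ± 3.89 CPM in DBA/2 and 50.7 ± 2.01 CPM in C57BL/6 (SD, n = 3 each). Irf3, which induces interferon beta after RNA or DNA is sensed, averaged 26.8 ± 0.859 CPM in DBA/2 and 29.1 ± 1.64 CPM in C57BL/6 (SD, n = 3 each), with overlapping strains.
Among 13 genes of nucleic acid sensing, 2 were higher and 3 lower. Traf3 (log2 fold change 0.33) and the kinase Tbk1 (0.18), which act together below the sensors, were higher, with edgeR Benjamini-Hochberg adjusted p-values of 4.15e-05 and 0.0286. Mavs, the mitochondrial adaptor of Ddx58 and Ifih1, averaged 7.25 ± 0.168 CPM in DBA/2 and 10.03 ± 0.723 CPM in C57BL/6 (SD, n = 3 each) and was lower by a log2 fold change of -0.46 (edgeR, Benjamini-Hochberg adjusted p = 0.00813). Ikbke, the kinase related to Tbk1, was lower (-1.01, edgeR, Benjamini-Hochberg adjusted p = 0.00068), as was the adaptor Myd88 (-0.51, 0.0206).
None of 9 negative regulators was called by edgeR, DESeq2 or limma-voom, and 0 had an unadjusted p under 0.05. Pias1, the most abundant, averaged 85.7 ± 3.64 CPM in DBA/2 and 81.2 ± 4.04 CPM in C57BL/6 (SD, n = 3 each). The phosphatase Ptpn1 averaged 64.2 ± 3.33 CPM in DBA/2 and 68 ± 0.596 CPM in C57BL/6 (SD, n = 3 each).
Of 40 other interferon-induced genes tested, 1 was higher and 3 were lower, so that most did not pass in either direction. Helz2 averaged 10.5 ± 0.867 CPM in DBA/2 and 6.8 ± 1.54 CPM in C57BL/6 (SD, n = 3 each; log2 fold change 0.61, edgeR, Benjamini-Hochberg adjusted p = 0.00338). Slfn2 had the largest fall, with 0.36 ± 0.0692 CPM in DBA/2 and 1.66 ± 0.519 CPM in C57BL/6 (SD, n = 3 each; log2 fold change -2.22, edgeR, Benjamini-Hochberg adjusted p = 0.000112). Gbp9, another guanylate-binding gene, and Nmi, the partner of Ifi35, were lower by log2 fold changes of -1.14 and -0.81 (edgeR, Benjamini-Hochberg adjusted p = 0.000981 and 0.0113).
The calls of Ifnar1, Traf3, Ikbke, Helz2, Slfn2 and Gbp9 were kept when any 1 library was left out. The edgeR Benjamini-Hochberg adjusted p without C57BL/6 library 1 was 0.0544 for Mavs, 0.0728 for Nmi, 0.0946 for Jak2, 0.117 for Tyk2 and 0.14 for Tbk1. Jak2 also lost its call without DBA/2 library 2 (0.18) or C57BL/6 library 2 (0.0816), and Tyk2 without DBA/2 library 1 (0.0908), DBA/2 library 3 (0.0552) or C57BL/6 library 3 (0.0671), all edgeR Benjamini-Hochberg adjusted p-values. Tbk1 also lost it without DBA/2 library 2 (0.0667), DBA/2 library 3 (0.0579) or C57BL/6 library 3 (0.0949), and Myd88 without DBA/2 library 1 (0.0673), DBA/2 library 2 (0.0504) or C57BL/6 library 2 (0.0996), by the same test and adjustment.

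The calls were also read against the promoter motif described at the start. Of the 17 tested genes with the core of the response element in the window, 2 were higher (Ifit3 and Stat2) and 2 lower (Igtp and Irgm2). Of the 10 tested genes whose window lacked these letters, 1 was higher (Xaf1), and of the 8 for which no window was found, 2 were higher (Ifi27 and Ifi27l2a). The windows of Igtp and Irgm2 each hold 1 match, on the strand of the gene, and those of Ifit3 and Ifit3b each hold 2 on the opposite strand.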

How the data were processed

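Per the labels' protocols, TRIzol was used on frozen hippocampus to isolate total RNA, and NEBNext Ultra libraries were run on an Illumina HiSeq. The tools named in the submitters' processing notes are HISAT2 2.0.1, Trimmomatic 0.30 and Cufflinks 2.2.1, with the build GRCm38, an assembly of C57BL/6J that also served for DBA/2. How reads were counted, and whether by strand, is not given in the sources used here. Raw counts per gene and FPKM values were deposited by the authors, and each FPKM equalled the count divided by exon length in kilobases and by the library total, scaled as usual, within 0.005. Another 12 columns of per-sample values match no labelled sample and were not used.

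Counts were tested with edgeR 4.0.16 in R 4.3.3 (quasi-likelihood F test, robust fit, TMM factors, filterByExpr by strain), with Benjamini-Hochberg adjustment over 17517 genes and a threshold of 0.05. The SE is the size of the log2 fold change divided by the square root of F. CPM were computed with TMM factors. The labels name no batch. Pairs of libraries differed by more than sampling noise (chi-square per degree of freedom 3.36 to 4.22 within a strain), so none was merged. The test was checked on simulated counts. Coordinates come from GENCODE M21 (GRCm38), which held 99.5% of the gene IDs, and similar genes from megablast alignments of at least 200 bases at 95% identity over 0.5 of the shorter transcript. Alternatives were other scalings, filters and tests (DESeq2 1.42.0, limma 3.58.1), a block for the replicate number, leaving out libraries and summing similar genes. Every gene of the list is named, and of the other pathway genes those called, or the 2 most abundant of a list without a call. The list, the other pathway genes and the markers were chosen with earlier results of these data known.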

Additional observations from a re-analysis of the deposited data

How the results depend on the processing

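The 5 higher and 2 lower calls among the interferon-stimulated genes depended on the setting, while the median log2 fold change stayed positive, between 0.12 and 0.31, under every alternative run. Over all genes, 1593 were called higher and 2407 lower with the settings used above. These numbers were 1775 and 2738 with no filter, 1247 and 1829 at a mean of 5 CPM, and 1223 and 1950 by DESeq2. With no filter on low counts 9 of the list were called higher. With a mean of at least 5 CPM 2 were higher and 0 lower, since Igtp and Irgm2 are below that level and not tested, and the DESeq2 Wald test called 3 and 0. Leaving out 1 library gave 1 to 7 higher and 0 to 2 lower. Without both C57BL/6 libraries with Xist, 2012 genes were called in all (691 higher and 1321 lower), with 3 and 0 of the list. Summing Igtp and Irgm2 leaves 1 lower by construction. Of the other pathway genes, 6 were called in each direction; 2 were lower at a mean of 5 CPM and 3 without the Xist libraries, 3 were higher by DESeq2, and 3 to 7 were higher and 4 to 6 lower with 1 library left out. The replicate numbers did not pair the samples (correlations of same-numbered libraries 0.14, -0.11 and 0.00082); with a replicate block 3 genes were called higher (Xaf1, Ifi27 and Gbp7) and 2 lower.

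Over single genes and alternatives, 458 values kept direction and call, 37 lost the call, 15 gained it and 25 changed sign, the last all for genes not called. Ifi35 was 0.0098 with library size alone. Without the Xist libraries the log2 fold changes were 0.038 for Ifi35, 0.095 for Eif2ak2, 0.11 for Ifitm3, 0.13 for Gbp3, -0.055 for Oas1b, 0.049 for Dtx3l and 0.16 for Ifit3b. With 1 library left out the log2 fold changes ranged from -0.13 to 0.28 for Irf7, from -0.019 to 0.20 for Trim25, from -0.15 to 0.064 for Gbp3, from -0.050 to 0.16 for Ifit2, from -0.35 to 0.31 for Ifi35, from -0.13 to 0.31 for Isg15, from -0.16 to 0.017 for Dtx3l, from -0.074 to 1.01 for Oas2, from -0.19 to 0.087 for Ifit3b and from -0.11 to 0.48 for Gbp2. The cause of these changes was not tested. Of the 35 genes 23 are under 5 CPM, and a miss of the threshold does not show equal levels. Stat2 and Ifi27, which are above it, also lost their calls with 1 library left out.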
